A study of Mus musculus with 12 samples.

Results

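Ileal transcripts of Rag1-/- mice were set against those of co-housed Tcra-/- mice, which makes 6 of the 12 libraries of the study, and all genes of the count table entered the comparison. The 6 were taken by the group prefix of their column in that table. Each library came from the terminal ileum of 1 mouse, bought from Taconic and kept under specific pathogen free conditions, and no age is given. The 3 Rag1-/- mice are labelled RAG1x3163, RAG1x3164 and RAG1x3168, and their housing is not given. The 3 co-housed Tcra-/- mice are labelled TCRaCox3155, TCRaCox3156 and TCRaCox3157, and values of each group are listed in these orders. They shared a cage with age-matched wild type males for 4 to 8 weeks. The other libraries came from 3 separately housed Tcra-/- mice and from 3 C57BL/6 wild type mice, whose levels are given where they place a gene. Whether housing differed between the groups is thus unknown, and if it did, genotype and housing cannot be told apart.

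Rag1 encodes a subunit of the recombinase that joins the gene segments of antigen receptors, so Rag1-/- mice form neither B cells nor T cells of any kind and keep innate lymphoid cells. Tcra encodes the alpha chain of the T cell receptor, and mice without it lack conventional alpha beta T cells but keep B cells, gamma delta T cells and some T cells with unusual receptors. In the ileum, B cells gather in Peyer's patches and smaller follicles, plasma cells secrete IgA in the lamina propria, and gamma delta T cells lie mainly within the epithelium. Lymphocytes also act on the epithelium through interferon gamma and IL-22, and IL-22 signals through the transcription factor STAT3.

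Libraries held 42717064 to 50581616 counts in Rag1-/- mice and 37061276 to 43496528 in co-housed Tcra-/- mice. Levels are given as CPM, counts scaled to library size, which compare a gene between mice but not 1 gene with another. Taken over genes, which do not count as independent replicates, Pearson's r of log2 CPM was 0.996 to 0.997 between Rag1-/- mice, 0.992 to 0.996 between co-housed Tcra-/- mice and 0.985 to 0.992 between mice of the 2 groups. Rag1 itself was counted at 1.84, 1.64 and 1.96 CPM in the Rag1-/- mice and had no read in the other 9 libraries, so its level was at least 72.2-fold higher in Rag1-/- mice than in co-housed Tcra-/- mice (floor of 3 counts over the group). The deleted part of the gene is not given, so a count over the whole gene does not check the label. Rag2, the partner of Rag1 in the recombinase and its neighbour on chromosome 2, had 0.221, 0.166 and 0.171 CPM in Rag1-/- mice, against 0.0571, 0.252 and 0.272 CPM in co-housed Tcra-/- mice. Those Rag2 levels overlapped (log2 fold change -0.10, 95% interval -1.53 to 1.33, adjusted p = 0.964). Rows for T cell receptor segments, Tcra included, were not analysed here.

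Of 15866 genes tested, 459 (2.89%) passed edgeR's quasi-likelihood test at a Benjamini-Hochberg adjusted p under 0.01, which is what "called", "rose" and "fell" stand for throughout. Genes that fell in Rag1-/- mice, relative to co-housed Tcra-/- mice, numbered 405 (2.55%), and genes that rose numbered 54 (0.340%). The 3 mice of each group did not overlap in any of the 459 called genes, a separation also seen in 22.7% of all genes tested. Without mouse RAG1x3164 the number of rises was 22, without mouse TCRaCox3156 it was 22, and without mouse RAG1x3168 it was 30. Against C57BL/6, and with the same 3 C57BL/6 mice in both tests, 20.9% of genes were called for Rag1-/- mice and 18.5% for co-housed Tcra-/- mice. The counts of the gene lists are to be read against 2.55% for falls and 0.340% for rises. A total of 97 called genes stood in a list of cell type or pathway genes, of which 93 fell and 4 rose. In bulk tissue, fewer cells of a type and less RNA per cell cannot be told apart.

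**Figure D1:**
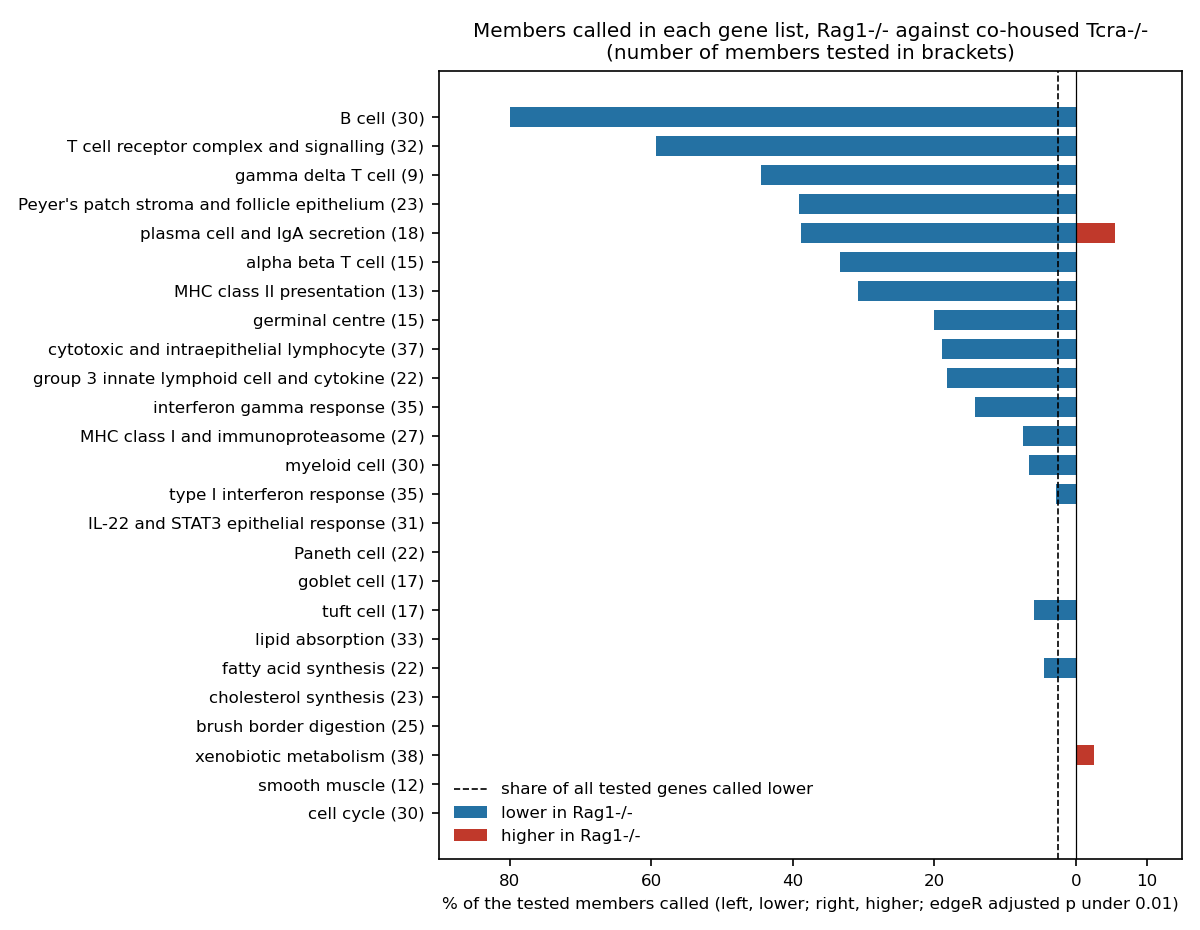
Share of the tested members of 25 gene lists that fell (bars to the left) or rose (bars to the right) in Rag1-/- relative to co-housed Tcra-/- mice, in percent, with a dashed line at 2.55%, the share of all tested genes that fell. The B cell list reached 24 of 30 and the T cell receptor list 19 of 32, while the IL-22, lipid absorption and cholesterol lists had no called member.

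Most B cell genes fell in Rag1-/- ileum. Of 30 B cell genes tested, 24 fell and none rose, with a median log2 fold change of -4.21, against -0.006 over all genes. Cd79a, which signals for the B cell receptor, had 0.0245, 0.0474 and 0.149 CPM in Rag1-/- mice, against 29.4, 31.2 and 18.5 CPM in co-housed Tcra-/- mice (log2 fold change -8.37, SE 0.50). Ms4a1, which encodes CD20, had 0.049, 0.0474 and 0.128 CPM in Rag1-/- mice, against 24.7, 26.6 and 21.1 CPM in co-housed Tcra-/- mice (log2 fold change -8.24, SE 0.42). In both genes every Rag1-/- mouse lay far below every co-housed Tcra-/- mouse, and mouse TCRaCox3157 was the lowest of its group.

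The same separation held for genes of mature follicular B cells. Faim3, the receptor for the Fc part of IgM, had no read in Rag1-/- mice, against 9.43, 8.69 and 5.94 CPM in co-housed Tcra-/- mice, at least 345-fold lower in Rag1-/- mice. Fcer2a, the low affinity IgE receptor CD23, had 0.0735, 0.0948 and 0.0427 CPM in Rag1-/- mice, against 7.03, 9.05 and 5.82 CPM in co-housed Tcra-/- mice (log2 fold change -6.66, SE 0.37). Tnfrsf13c, the BAFF receptor on which mature B cells depend, fell by 6.18 on the log2 scale (SE 0.37). The groups did not overlap in any of these receptors. Cxcr5, which guides B cells into follicles, had 0.196, 0.474 and 0.299 CPM in Rag1-/- mice, against 9.97, 10.9 and 6.56 CPM in co-housed Tcra-/- mice (log2 fold change -4.81, SE 0.34). Cd79b, the partner of Cd79a in the B cell receptor, fell by 4.16 (SE 0.19), and Fcrla, a B cell protein related to Fc receptors, fell by 5.24 (SE 0.35). Blk, a kinase of B cells and of gamma delta T cells, fell by 4.27 (SE 0.24).

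The 6 tested B cell genes that were not called were Ebf1, Ly6d, Ciita, Cd74, Ralgps2 and Blnk, named here after their values were seen. Ebf1, a transcription factor of early B cells, had 0.343, 0.142 and 0.512 CPM in Rag1-/- mice, against 1.71, 1.60 and 1.09 CPM in co-housed Tcra-/- mice (log2 fold change -2.12, adjusted p = 0.0114). Blnk, an adaptor of B cell receptor signalling, was at 28.1, 33.9 and 27.9 CPM in Rag1-/- mice, against 25.0, 24.1 and 25.1 CPM in co-housed Tcra-/- mice (log2 fold change 0.28, 95% interval 0.02 to 0.53). Cd74, the invariant chain of MHC class II, had 1687, 1661 and 1900 CPM in Rag1-/- mice, against 2231, 2243 and 1880 CPM in co-housed Tcra-/- mice. The Cd74 levels overlapped between the groups (log2 fold change -0.28, 95% interval -0.53 to -0.02, adjusted p = 0.237). Cd74 shares exonic bases with another gene, as do Cd247 and H2-Oa named further on. Summed without Cd74, the B cell genes gave 168 to 174 CPM in Rag1-/- mice and 387 to 517 CPM in co-housed Tcra-/- mice, with 237 to 316 CPM in separately housed Tcra-/- mice and 539 to 587 CPM in C57BL/6 mice. Cd74 was left out of this sum after the values were seen. The sum still holds uncalled genes such as Blnk, so it does not measure what is left of B cell transcripts in Rag1-/- mice.

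**Figure D2:**
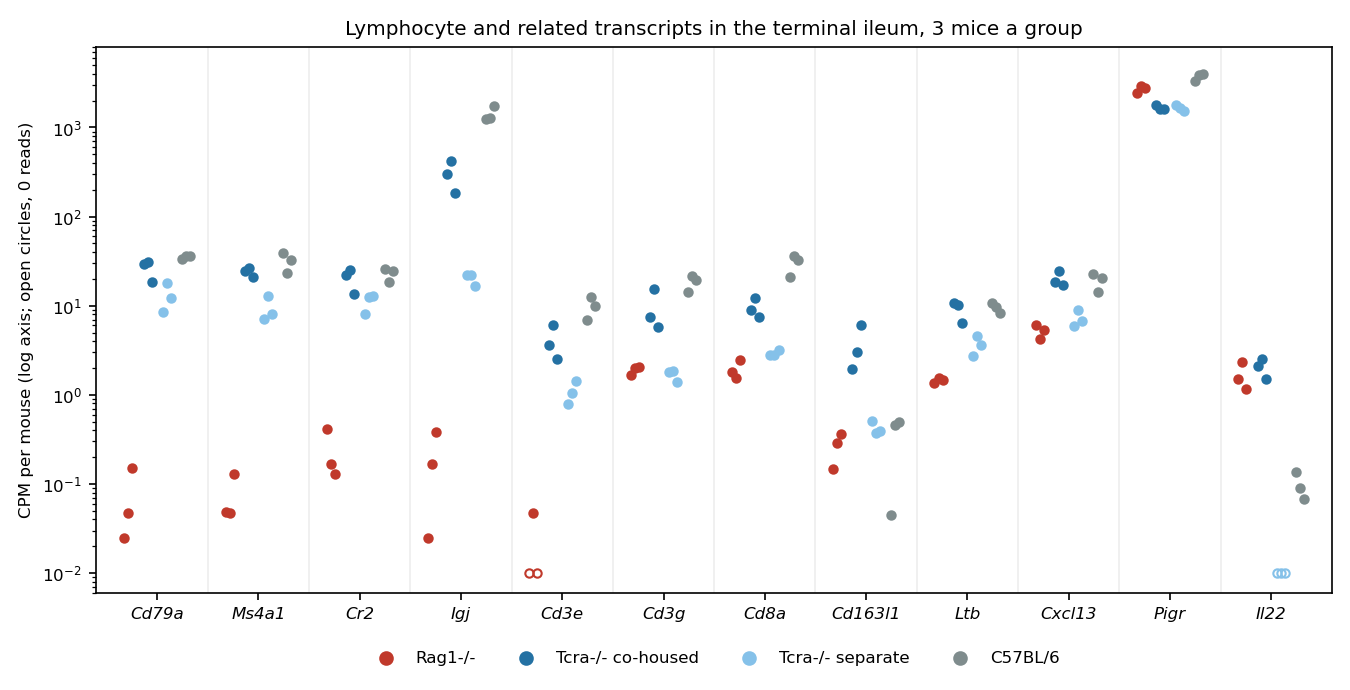
CPM on a log axis, 1 point per mouse, of 12 genes in Rag1-/-, co-housed Tcra-/-, separately housed Tcra-/- and C57BL/6 mice; open circles mark libraries with no read of the gene. Cd79a, Ms4a1, Cr2, Igj and Cd3e of the Rag1-/- mice all lie under 0.5 CPM, while Il22 overlaps between Rag1-/- and co-housed Tcra-/- mice and Pigr lies higher in Rag1-/- mice.

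Pou2af1 and Pou2f2 encode OBF-1 and OCT-2, which act together on the octamer ATTTGCAT in B cell promoters. Pou2af1 had 0.539, 0.711 and 0.790 CPM in Rag1-/- mice, against 14.5, 15.1 and 10.3 CPM in co-housed Tcra-/- mice (log2 fold change -4.27, adjusted p = 5.09e-08). Pou2f2, which was singled out after its values were seen, had 0.563, 0.213 and 0.662 CPM in Rag1-/- mice, against 3.46, 3.06 and 2.43 CPM in co-housed Tcra-/- mice (log2 fold change -2.62, adjusted p = 0.000132). Neither gene overlapped between the groups. The octamer, searched as ATTTGCAT on both strands in the 250 bases before the transcription start, stood in 13 of the 309 falling genes with a RefSeq promoter (4.21%), against 1.63% of the 12347 tested genes with one. Among genes that rose it stood in 1 of 43 (2.33%), the acid phosphatase gene Acpp. The promoters of 3 of the 13 are shown from RefSeq (GRCm38.p6), to let the octamer be seen in its context, in capitals and in the direction of transcription. Vpreb3 lies at chr10:75948050-75948299 on the plus strand, Ccr6 at chr17:8235793-8236042 on the plus strand and Tlr9 at chr9:106222348-106222597 on the plus strand, where the capitals give the octamer as read from the opposite strand.
Vpreb3: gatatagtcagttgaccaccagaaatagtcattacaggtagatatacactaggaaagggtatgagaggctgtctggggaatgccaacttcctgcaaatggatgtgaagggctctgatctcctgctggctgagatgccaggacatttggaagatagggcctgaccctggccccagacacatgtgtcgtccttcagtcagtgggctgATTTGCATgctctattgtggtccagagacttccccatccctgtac
Ccr6: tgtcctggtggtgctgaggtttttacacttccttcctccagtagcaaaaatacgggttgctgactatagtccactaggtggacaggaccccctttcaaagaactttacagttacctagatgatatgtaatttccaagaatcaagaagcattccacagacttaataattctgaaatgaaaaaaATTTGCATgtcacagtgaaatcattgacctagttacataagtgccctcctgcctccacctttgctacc
Tlr9: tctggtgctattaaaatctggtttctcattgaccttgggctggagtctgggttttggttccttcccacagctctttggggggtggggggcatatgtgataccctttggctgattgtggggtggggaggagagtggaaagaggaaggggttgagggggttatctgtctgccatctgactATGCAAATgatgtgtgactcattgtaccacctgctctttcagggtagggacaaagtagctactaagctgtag
The octamer starts 45 bases before the transcription start in Vpreb3, 68 in Ccr6 and 72 in Tlr9. A match is a description of these letters, not of a bound site or of a cause.

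Those 3 genes were taken from the ones that fell, so their direction was set by the choice. Vpreb3, a B cell protein related to the surrogate light chain, was singled out after its values were seen. It had no read in Rag1-/- mice, against 1.46, 1.94 and 1.54 CPM in co-housed Tcra-/- mice, at least 71.9-fold lower in Rag1-/- mice. Ccr6, a chemokine receptor of B cells and group 3 innate lymphoid cells, had 0.098, 0.142 and 0.107 CPM in Rag1-/- mice, against 2.51, 2.70 and 1.59 CPM in co-housed Tcra-/- mice (log2 fold change -4.26, adjusted p = 9.87e-06). Tlr9, an endosomal receptor for microbial DNA and likewise singled out afterwards, had 0.392, 0.569 and 0.534 CPM in Rag1-/- mice, against 2.86, 2.79 and 1.56 CPM in co-housed Tcra-/- mice (log2 fold change -2.26, adjusted p = 0.000216). None of the 3 overlapped between the groups.

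Germinal centre genes were less clearly separated, with 3 of 15 tested members called, all lower, and a median log2 fold change of -1.20. Il21r, the receptor of the T helper cytokine IL-21, had 0.637, 0.687 and 0.662 CPM in Rag1-/- mice, against 7.26, 8.28 and 5.42 CPM in co-housed Tcra-/- mice (log2 fold change -3.39, SE 0.21). Gpr183, which positions activated B cells, fell by 1.70 (SE 0.28), with the call lost without mouse RAG1x3164 (adjusted p 4.4e-05 to 0.0104 over the 6 mice left out in turn). Cd40, the receptor for T cell help, fell by 1.39 (SE 0.24), with the call lost without mouse RAG1x3168 or TCRaCox3156 (adjusted p 0.000436 to 0.014).

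Some plasma cell transcripts fell, and the epithelial receptor for IgA rose. Among 18 tested genes of plasma cells and IgA secretion, 7 fell and 1 rose, with a median log2 fold change of -0.42. Igj, the joining chain of secreted IgA, had 0.0245, 0.166 and 0.384 CPM in Rag1-/- mice, against 302, 420 and 182 CPM in co-housed Tcra-/- mice, 22.2, 22.3 and 16.7 CPM in separately housed Tcra-/- mice and 1229, 1265 and 1722 CPM in C57BL/6 mice. Rag1-/- mice were the lowest of the 4 groups in Igj, with no overlap (log2 fold change -10.54, SE 0.56, adjusted p = 5.85e-06). Irf4, a transcription factor of plasma cells and activated lymphocytes, fell by 3.33 (SE 0.28). The gene listed as 2010001M09Rik had 0.098, 0 and 0.171 CPM in Rag1-/- mice, against 5.83, 8.30 and 5.84 CPM in co-housed Tcra-/- mice (log2 fold change -6.13, SE 0.41). Tnfrsf17, the plasma cell receptor BCMA, and Ccr10, the homing receptor of IgA plasma cells, were singled out after their values were seen. Tnfrsf17 fell by 4.42 (SE 0.71), and Ccr10 had no read in Rag1-/- mice, at least 18.2-fold lower than in co-housed Tcra-/- mice. Of 29 immunoglobulin genes looked for, 1 had a row and none passed the filter on low counts.

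Pigr encodes the polymeric immunoglobulin receptor, which carries IgA across the epithelium. It had 2414, 2930 and 2794 CPM in Rag1-/- mice, against 1772, 1622 and 1604 CPM in co-housed Tcra-/- mice, 1769, 1651 and 1521 CPM in separately housed Tcra-/- mice and 3282, 3888 and 4007 CPM in C57BL/6 mice. Rag1-/- mice thus lay above both Tcra-/- groups and below C57BL/6 mice. Pigr rose by a log2 fold change of 0.70 (SE 0.10, adjusted p = 0.000155) against co-housed Tcra-/- mice. Relative to C57BL/6 the log2 fold change was -0.46 for Rag1-/- mice (adjusted p = 0.00161) and -1.16 for co-housed Tcra-/- mice (adjusted p = 4.57e-07), with the 3 C57BL/6 mice shared by both values. Xbp1 and Prdm1, which plasma cells and epithelium both express, were not called, with log2 fold changes of 0.20 (95% interval 0.03 to 0.38) and -0.01 (95% interval -0.23 to 0.22).

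Transcripts of CD3 chains and of T cell receptor signalling proteins fell in part in Rag1-/- ileum, and both genotypes lack conventional alpha beta T cells. Of 32 tested genes of the receptor complex and its signalling, 19 fell and none rose, with a median log2 fold change of -2.35. Cd3e, an invariant chain of the receptor complex, had 0, 0.0474 and 0 CPM in Rag1-/- mice, against 3.63, 6.15 and 2.53 CPM in co-housed Tcra-/- mice and 6.84, 12.7 and 9.95 CPM in C57BL/6 mice (log2 fold change -7.81 against co-housed Tcra-/-, SE 0.69). Separately housed Tcra-/- mice had 0.790, 1.05 and 1.42 CPM of Cd3e. The invariant chains Cd3d and Cd247 fell by 5.32 (SE 0.48) and by 4.88 (SE 0.42), and Ptprcap, a partner of the phosphatase CD45, fell by 2.86 (SE 0.22). Cd3g, another chain of the complex, was named after its values were seen. It had 1.67, 2.01 and 2.07 CPM in Rag1-/- mice, against 7.48, 15.3 and 5.74 CPM in co-housed Tcra-/- mice (log2 fold change -2.31, SE 0.33). Neither chain overlapped between the groups, and mouse TCRaCox3156 was the highest of the co-housed Tcra-/- mice in both. Bcl11b, a T cell transcription factor singled out afterwards, was at 21.9, 20.7 and 25.3 CPM in Rag1-/- mice, against 24.3, 20.8 and 20.5 CPM in co-housed Tcra-/- mice (log2 fold change 0.05, 95% interval -0.15 to 0.26). As Rag1-/- mice form no T cells, Bcl11b does not mark T cells alone in this tissue.

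Genes that mark alpha beta subsets moved less evenly. Of 15 tested, 5 fell, with a median log2 fold change of -1.17. Cd8a, the CD8 alpha chain, had 1.81, 1.54 and 2.43 CPM in Rag1-/- mice, against 9.03, 12.1 and 7.53 CPM in co-housed Tcra-/- mice and 21.0, 36.3 and 32.2 CPM in C57BL/6 mice (log2 fold change -2.30 against co-housed Tcra-/-, SE 0.24). Separately housed Tcra-/- mice, at 2.83, 2.77 and 3.17 CPM of Cd8a, lay nearer to Rag1-/- than to co-housed Tcra-/- mice. Its usual partner on conventional T cells, Cd8b1, had 0.196, 0.403 and 0.598 CPM in Rag1-/- mice, against 0.428, 1.10 and 0.396 CPM in co-housed Tcra-/- mice. The Cd8b1 levels overlapped (log2 fold change -0.68, 95% interval -1.66 to 0.29), as did those of Cd4 (log2 fold change -0.61, 95% interval -1.10 to -0.12, adjusted p = 0.161). Cd8b1 and Cd4 were named after their values were seen. Ccr7, a chemokine receptor of naive lymphocytes and migrating dendritic cells that B cells also make, fell by 2.67 (SE 0.30). Ctla4, an inhibitory receptor of activated T cells, fell by 3.31 (SE 0.60), with the call lost without mouse RAG1x3164, RAG1x3168 or TCRaCox3156 (adjusted p 0.000379 to 0.022).

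Rag1-/- mice lack gamma delta T cells, which Tcra-/- mice keep. Receptor rows that mark these cells were not analysed here. Of 9 other markers tested, 4 fell and none rose, with a median log2 fold change of -0.26. Cd163l1, a scavenger receptor of IL-17 producing gamma delta T cells, had 0.147, 0.284 and 0.363 CPM in Rag1-/- mice, against 1.971, 2.995 and 6.041 CPM in co-housed Tcra-/- mice, 0.505, 0.373 and 0.394 CPM in separately housed Tcra-/- mice and 0.045, 0.453 and 0.492 CPM in C57BL/6 mice. Every co-housed Tcra-/- mouse lay above every other mouse of the study (log2 fold change -3.77 in Rag1-/- against co-housed Tcra-/-, SE 0.56, adjusted p = 0.000789). 5830411N06Rik, a neighbour of Cd163l1 from the same receptor family, fell by 2.21 (SE 0.43), with the call lost without mouse RAG1x3164, RAG1x3168, TCRaCox3156 or TCRaCox3157 (adjusted p 0.00657 to 0.0292). Cd160, a receptor of intraepithelial lymphocytes, fell by 1.59 (SE 0.32), with the call lost without mouse RAG1x3163, RAG1x3164, TCRaCox3155 or TCRaCox3156 (adjusted p 0.000745 to 0.0482). Blk, described above, is the other of the 4. Sox13, a transcription factor of gamma delta T cells named after its values were seen, was at 97.3, 97.1 and 100.4 CPM in Rag1-/- mice, against 100.1, 87.6 and 105.1 CPM in co-housed Tcra-/- mice, and overlapped. As Rag1-/- mice lack gamma delta T cells, Sox13 does not mark these cells alone in this tissue.

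Cytotoxic and intraepithelial lymphocyte genes fell in part, 7 of 37 tested, with a median log2 fold change of -1.02. The list summed to 155 to 192 CPM in Rag1-/- mice and 194 to 347 CPM in co-housed Tcra-/- mice. Separately housed Tcra-/- mice were lower than both, at 116 to 132 CPM, and C57BL/6 mice had 342 to 516 CPM. Runx3, a transcription factor of cytotoxic lymphocytes, had 1.81, 1.94 and 1.43 CPM in Rag1-/- mice, against 4.80, 4.71 and 4.43 CPM in co-housed Tcra-/- mice (log2 fold change -1.43, SE 0.18). Separately housed Tcra-/- mice had 1.21, 1.12 and 1.27 CPM of Runx3, below all Rag1-/- mice. Cxcr6, a chemokine receptor of tissue resident lymphocytes, fell by 1.56 (SE 0.24). Itgb7, an integrin subunit for gut homing, fell by 1.65 (SE 0.27), a call lost without mouse RAG1x3163 (adjusted p 0.000383 to 0.0125). Il2rb, a receptor chain for IL-2 and IL-15, fell by 0.81 (SE 0.15), a call lost without mouse RAG1x3163, RAG1x3164 or TCRaCox3156 (adjusted p 0.00185 to 0.0288). Gzma and Gzmb, granzymes of intraepithelial lymphocytes that innate lymphocytes also make, were not called and were named after their values were seen. Gzmk, another granzyme named afterwards, fell. Its call was lost without mouse RAG1x3163, RAG1x3164, RAG1x3168, TCRaCox3155 or TCRaCox3156 (adjusted p 2.12e-05 to 0.0476). Gzma had 23.3, 23.7 and 34.0 CPM in Rag1-/- mice, against 23.2, 55.9 and 13.7 CPM in co-housed Tcra-/- mice (log2 fold change -0.20, 95% interval -1.30 to 0.90). Gzmb likewise overlapped (log2 fold change -0.24, 95% interval -1.45 to 0.97). In Gzma and Gzmb the co-housed Tcra-/- mice spread widely, with mouse TCRaCox3156 highest and mouse TCRaCox3157 lowest. Ifng, which encodes interferon gamma, had 0.269, 0.0474 and 0.149 CPM in Rag1-/- mice, against 1.17, 1.08 and 0.322 CPM in co-housed Tcra-/- mice (log2 fold change -2.44, 95% interval -3.74 to -1.15, adjusted p = 0.025), and was not called.

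Some genes of follicle organisation fell. Of 23 tested genes of Peyer's patch stroma and follicle epithelium, 9 fell and none rose, with a median log2 fold change of -0.93, and Cr2 and Spib among the 9 are also in the B cell list. Whether the tissue pieces held a Peyer's patch is not given. Cr2, the complement receptor of B cells and follicular dendritic cells, had 0.416, 0.166 and 0.128 CPM in Rag1-/- mice, against 22.3, 25.3 and 13.4 CPM in co-housed Tcra-/- mice (log2 fold change -6.44, SE 0.41). Cxcl13, the chemokine that draws B cells into follicles, had 6.05, 4.20 and 5.38 CPM in Rag1-/- mice, against 18.6, 24.8 and 17.0 CPM in co-housed Tcra-/- mice (log2 fold change -1.95, SE 0.21). Mfge8, a phagocytosis factor of follicular dendritic cells, had 30.6, 26.8 and 27.9 CPM in Rag1-/- mice, against 58.8, 81.8 and 58.8 CPM in co-housed Tcra-/- mice (log2 fold change -1.23, SE 0.13). These 3 genes separated all mice of the groups. Spib, a transcription factor of B cells, M cells and tuft cells, fell by 1.88 (SE 0.22). Gp2, a receptor of mature M cells named after its values were seen, had 0.392, 0.711 and 0.704 CPM in Rag1-/- mice, against 1.69, 0.549 and 1.83 CPM in co-housed Tcra-/- mice, and overlapped (log2 fold change -1.14, 95% interval -1.99 to -0.30, adjusted p = 0.123). Madcam1, the vessel ligand of the gut homing integrin, fell by 1.58 (SE 0.23).

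Lymphotoxin genes fell. Of 22 tested genes of group 3 innate lymphoid cells and their cytokines, 4 fell and none rose (median log2 fold change -0.45). Ltb, the lymphotoxin beta subunit that builds lymphoid tissue, had 1.35, 1.54 and 1.47 CPM in Rag1-/- mice, against 10.7, 10.1 and 6.39 CPM in co-housed Tcra-/- mice (log2 fold change -2.64, SE 0.22). Lta, its partner subunit, fell by 2.68 (SE 0.44). Besides these, the 4 include Ccr6 and Cxcr6, described above, and B and T cells also express all 4. Il23r, the receptor of IL-23, was at 0.857, 0.474 and 0.406 CPM in Rag1-/- mice, against 1.03, 0.937 and 0.842 CPM in co-housed Tcra-/- mice (log2 fold change -0.70, 95% interval -1.43 to 0.04). The levels of Il23r overlapped, and it was named after its values were seen. Of 11 tested genes of group 2 innate lymphoid cells and the type 2 response, none was called by edgeR's quasi-likelihood test or by DESeq2, and 2 were higher and none lower at an unadjusted p under 0.05.

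MHC class II genes moved unevenly. Of 13 tested, 4 fell (median log2 fold change -0.36) and all 13 had a negative log2 fold change. The 4 were H2-Eb2, H2-Oa, H2-Ob and H2-DMb2. H2-Ob, a chain of the B cell peptide loading regulator H2-O, had 2.01, 0.806 and 1.13 CPM in Rag1-/- mice, against 23.2, 24.7 and 15.6 CPM in co-housed Tcra-/- mice (log2 fold change -4.01, SE 0.30). H2-Eb2, a class II beta chain, had 0.318, 0.237 and 0.320 CPM in Rag1-/- mice, against 10.7, 11.1 and 6.51 CPM in co-housed Tcra-/- mice (adjusted p = 7.18e-07). H2-Oa, the other H2-O chain, fell by 2.71 (SE 0.26), and H2-DMb2, a peptide loading chain, fell by 3.01 (SE 0.32). The classical chain H2-Aa, named after its values were seen, had 971, 952 and 1142 CPM in Rag1-/- mice, against 1495, 1525 and 921 CPM in co-housed Tcra-/- mice (log2 fold change -0.36, 95% interval -0.75 to 0.02). Its levels overlapped, with mouse TCRaCox3157 under all 3 Rag1-/- mice. Separately housed Tcra-/- mice had 158, 159 and 130 CPM of H2-Aa. Among 27 tested MHC class I and immunoproteasome genes, H2-Q6 and Tap2 fell (median log2 fold change -0.34). H2-Q6, a nonclassical class I gene with near-identical neighbours between which reads may be split, had 2.47, 3.08 and 3.18 CPM in Rag1-/- mice, against 8.63, 9.90 and 5.55 CPM in co-housed Tcra-/- mice. Its log2 fold change was -1.46 (SE 0.21). Tap2, a chain of the peptide transporter, fell by 0.56 (SE 0.12). Its call was lost without mouse RAG1x3163, RAG1x3164, RAG1x3168, TCRaCox3155 or TCRaCox3156, each left out singly (adjusted p 0.00739 to 0.05).

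Interferon gamma response genes were lower in Rag1-/- mice as a list, though few of them passed the test. Of 35 tested, 5 fell and none rose, 27 did not overlap between the groups (22.7% of all tested genes did not), and the median log2 fold change was -1.31. DESeq2 called 22 of the 35 lower, against 3.74% of all tested genes. The number called changed with the mouse left out. It ran from 1, when any single Rag1-/- mouse was left out, to 14 without mouse TCRaCox3157, and was 2 without mouse TCRaCox3155. F830016B08Rik, an interferon inducible GTPase, had 1.98, 2.39 and 3.31 CPM in Rag1-/- mice, against 22.1, 43.5 and 10.8 CPM in co-housed Tcra-/- mice (log2 fold change -3.31, SE 0.54). That call was lost without mouse RAG1x3163, RAG1x3164, RAG1x3168 or TCRaCox3155 (adjusted p 0.000415 to 0.0422). Gbp9, a guanylate binding protein, had 4.75, 3.18 and 5.46 CPM in Rag1-/- mice, against 17.4, 23.6 and 12.9 CPM in co-housed Tcra-/- mice (log2 fold change -2.005, SE 0.23), and kept its call without any 1 mouse (adjusted p 4.38e-06 to 0.000742). Gbp5, of the same family, had 6.52, 5.07 and 6.34 CPM in Rag1-/- mice, against 15.5, 22.6 and 9.76 CPM in co-housed Tcra-/- mice (log2 fold change -1.42, SE 0.25), with the call lost without mouse RAG1x3163, RAG1x3164 or RAG1x3168 (adjusted p 1.35e-05 to 0.0228). Serpina3g, a protease inhibitor of activated lymphocytes, fell by 1.59 (SE 0.28), with the call lost without mouse RAG1x3163, RAG1x3164, RAG1x3168 or TCRaCox3155 (adjusted p 9.96e-05 to 0.0372). Serpina3g and Tgtp1 share exonic bases with another gene, so their reads may belong to either.

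Mouse TCRaCox3156 was the highest and mouse TCRaCox3157 the lowest of the co-housed Tcra-/- mice in these genes, the same order as in Cd3e, Cd3g and Cd8a. The part of lymphocyte number in these levels was not tested. The members Igtp and Irf1 were named after their values were seen. Igtp, an immunity related GTPase, had 46.2, 48.1 and 73.2 CPM in Rag1-/- mice, against 162, 257 and 129 CPM in co-housed Tcra-/- mice (log2 fold change -1.71, 95% interval -2.62 to -0.80, adjusted p = 0.0428). Irf1, an early target, overlapped (log2 fold change -0.37, 95% interval -0.79 to 0.04). Igtp separated the groups without passing the test. Relative to C57BL/6, the list's median log2 fold change was -0.11 in Rag1-/- mice and 1.09 in co-housed Tcra-/- mice, where both values share the 3 C57BL/6 mice. The 11 guanylate binding protein genes, grouped after their values were seen, summed to 101 to 152 CPM in Rag1-/- mice and 246 to 510 CPM in co-housed Tcra-/- mice, with 59.5 to 72.5 CPM in separately housed Tcra-/- mice and 133 to 221 CPM in C57BL/6 mice. Of the 35 type I interferon response genes, 1 fell, with a median log2 fold change of -0.21. That gene, Ifi27l2a, had 10.04, 10.97 and 11.08 CPM in Rag1-/- mice, against 23.4, 28.6 and 29.3 CPM in co-housed Tcra-/- mice (log2 fold change -1.34, SE 0.13).

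**Figure D3:**
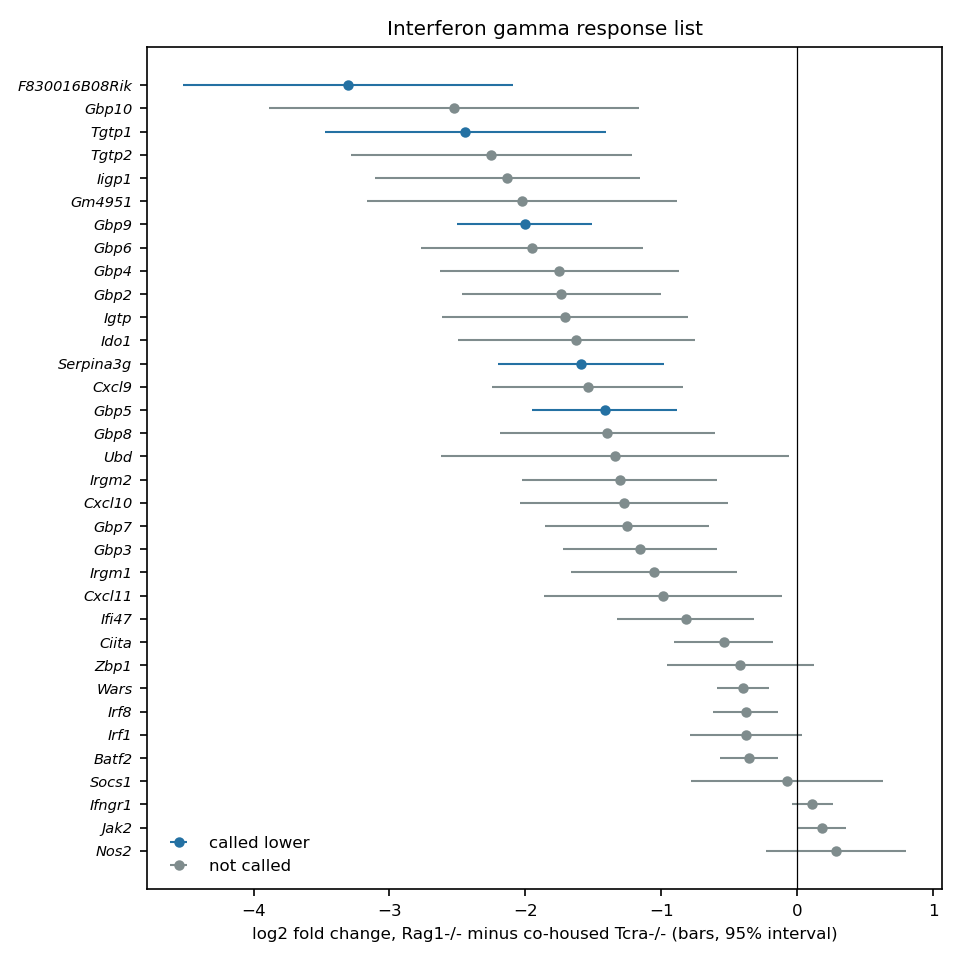
Log2 fold change of Rag1-/- minus co-housed Tcra-/- mice for tested interferon gamma response genes other than those not reported here, one row per gene, with bars for the 95% interval and colour for the 5 genes called lower. Most points lie left of 0, with F830016B08Rik at -3.31 the lowest, and Jak2, Ifngr1 and Nos2 lie right of it.

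Interferon regulatory factors bind repeats of GAAA. The motif GAAA, any 2 bases and GAAA again, searched on both strands in the same 250 bases, stood in 21 of the 309 falling genes with a RefSeq promoter (6.80%), against 415 of 12347 tested genes (3.36%). Among genes that rose it stood in 1 of 43 (2.33%), Ccdc73. No test was made of the difference between these shares. The promoters of Tgtp1 and Gbp5, interferon inducible members of the list that both fell, are shown from RefSeq (GRCm38.p6) with the motif in capitals. Tgtp1 lies at chr11:48992247-48992496 on the minus strand and Gbp5 at chr3:142496684-142496933 on the plus strand, where the capitals read the motif from the opposite strand.
Tgtp1: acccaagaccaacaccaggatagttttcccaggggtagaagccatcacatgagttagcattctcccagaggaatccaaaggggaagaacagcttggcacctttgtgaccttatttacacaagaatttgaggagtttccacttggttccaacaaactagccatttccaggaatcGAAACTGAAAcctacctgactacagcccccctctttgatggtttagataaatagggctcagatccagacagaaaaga
Gbp5: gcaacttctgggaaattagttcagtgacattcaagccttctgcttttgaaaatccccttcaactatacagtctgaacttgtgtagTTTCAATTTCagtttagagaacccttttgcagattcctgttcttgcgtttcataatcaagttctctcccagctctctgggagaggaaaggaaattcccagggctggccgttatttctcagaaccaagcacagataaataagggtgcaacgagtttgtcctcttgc
The motif starts 77 bases before the transcription start in Tgtp1 and 165 in Gbp5. Tgtp1, a GTPase of T cells and interferon treated cells, had 1.32, 1.09 and 1.81 CPM in Rag1-/- mice, against 6.71, 13.1 and 3.24 CPM in co-housed Tcra-/- mice (log2 fold change -2.44, adjusted p = 0.00967). Its call was lost without mouse RAG1x3163, RAG1x3164, RAG1x3168, TCRaCox3155 or TCRaCox3156 (adjusted p 0.000126 to 0.0584), and reads may be split with a near-identical copy, Tgtp2.

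Other families that fell were grouped after their values were seen. Of 8 tested Gimap genes, GTPases of lymphocytes, 5 fell, and the family summed to 43.9 to 54.4 CPM in Rag1-/- mice and 93.8 to 165 CPM in co-housed Tcra-/- mice. Gimap7 had 1.27, 0.995 and 1.26 CPM in Rag1-/- mice, against 7.23, 10.7 and 5.82 CPM in co-housed Tcra-/- mice (log2 fold change -2.75, SE 0.22). Of 9 tested genes of the Pyhin family, interferon inducible proteins that sense DNA, 6 fell, with sums of 43.1 to 48.2 CPM in Rag1-/- mice and 67.0 to 108 CPM in co-housed Tcra-/- mice. Its member Pydc3 fell by 2.58 (SE 0.25). The sums of these 2 families did not overlap between the groups. Those of 2 others did, the Ms4a family, with 4 of 12 tested genes lower and sums of 613 to 658 CPM in Rag1-/- mice and 635 to 666 CPM in co-housed Tcra-/- mice, and the Slfn family, with 2 of 8 lower and sums of 175 to 293 CPM in Rag1-/- mice and 246 to 327 CPM in co-housed Tcra-/- mice. In the myeloid list, Cybb and Ccr7 were the 2 of 30 tested members that fell (median log2 fold change -0.21). Cybb, the phagocyte oxidase subunit that B cells also make, had 9.50, 8.41 and 10.8 CPM in Rag1-/- mice, against 26.0, 33.1 and 17.5 CPM in co-housed Tcra-/- mice (log2 fold change -1.42, SE 0.20).

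Genes of the epithelial IL-22 response did not pass the test, though most had a positive log2 fold change. Of 31 tested genes of the IL-22 and STAT3 response, none was called by edgeR's quasi-likelihood test. At an unadjusted p under 0.05, Saa3, Retnlb and Tmprss2 were higher and Pla2g5 lower, and DESeq2 called Pla2g5 lower alone. The list's median log2 fold change was 0.38, with 6 of the 31 negative. Of the 31, 8 did not overlap between the groups, as was so for 22.7% of all tested genes. Il22 itself had 1.49, 2.32 and 1.17 CPM in Rag1-/- mice, against 2.09, 2.52 and 1.49 CPM in co-housed Tcra-/- mice, with no read in separately housed Tcra-/- mice and 0.135, 0.0907 and 0.0671 CPM in C57BL/6 mice. The levels of Il22 overlapped between Rag1-/- and co-housed Tcra-/- mice (log2 fold change -0.29, 95% interval -0.94 to 0.37, adjusted p = 0.689). Members of this list were named after their values were seen.

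Reg3b, an antimicrobial lectin, had 60900, 59350 and 61420 CPM in Rag1-/- mice, against 54810, 49260 and 63530 CPM in co-housed Tcra-/- mice, and overlapped (log2 fold change 0.12, 95% interval -0.68 to 0.92). Fut2, a fucosyltransferase of the epithelial glycocalyx, had 467, 605 and 373 CPM in Rag1-/- mice, against 300, 237 and 471 CPM in co-housed Tcra-/- mice, and overlapped (log2 fold change 0.52, 95% interval -0.22 to 1.26). The intervals of both genes reach past a doubling or near to it. B3galt5, a galactosyltransferase, had 844, 1146 and 823 CPM in Rag1-/- mice, against 688, 702 and 753 CPM in co-housed Tcra-/- mice, 3.31, 2.28 and 1.64 CPM in separately housed Tcra-/- mice and 8.59, 8.79 and 12.3 CPM in C57BL/6 mice. The lowest Rag1-/- mouse lay above the highest co-housed Tcra-/- mouse in B3galt5, which was not called (log2 fold change 0.39, 95% interval -0.03 to 0.81, adjusted p = 0.318). Relative to C57BL/6, B3galt5 stood at a log2 fold change of 6.57 in Rag1-/- mice and of 6.17 in co-housed Tcra-/- mice. The whole list's median against C57BL/6 was 2.03 in Rag1-/- mice and 1.86 in co-housed Tcra-/- mice, values that share the 3 C57BL/6 mice. Pla2g5, a secreted phospholipase, had 17.2, 19.8 and 23.7 CPM in Rag1-/- mice, against 32.8, 41.8 and 32.1 CPM in co-housed Tcra-/- mice (log2 fold change -0.81, 95% interval -1.24 to -0.39, adjusted p = 0.0287).

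**Figure D4:**
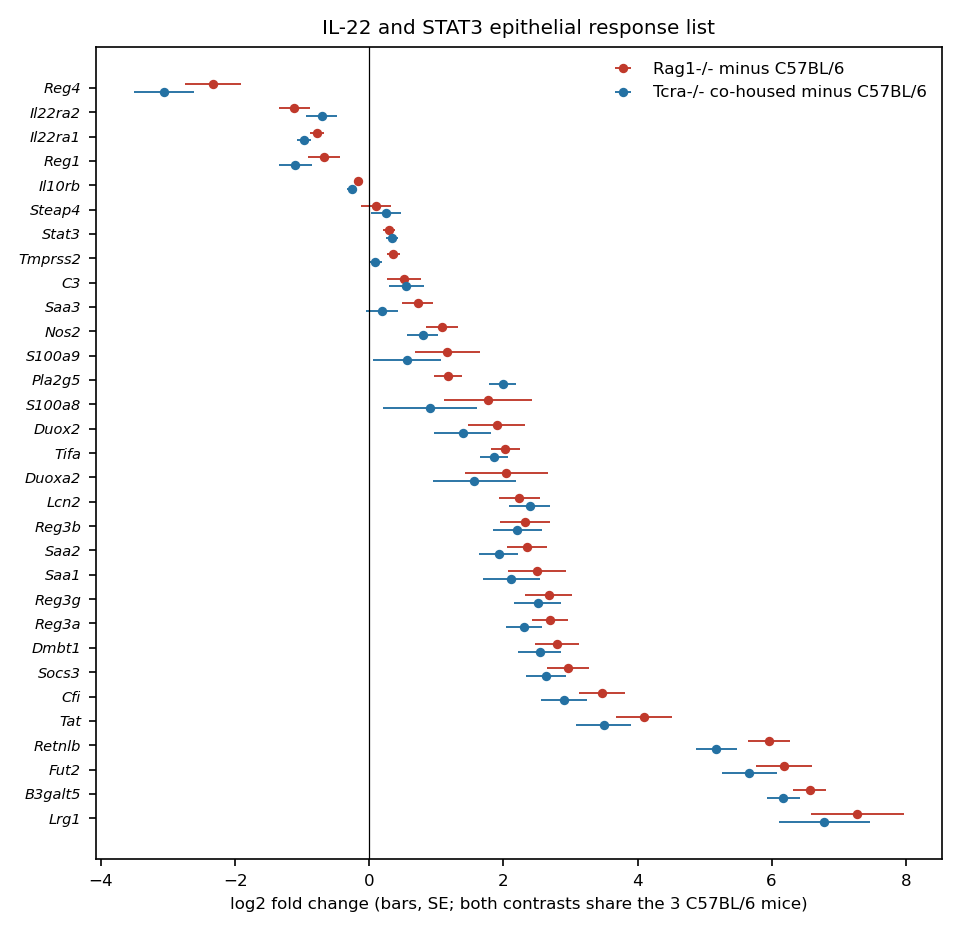
Log2 fold change against C57BL/6 of the 31 tested IL-22 and STAT3 response genes in Rag1-/- mice (red) and co-housed Tcra-/- mice (blue), with SE bars; both contrasts share the 3 C57BL/6 mice. The paired points lie near each other over the range from Reg4, lower than C57BL/6 in both knockouts, to Lrg1 at 7.28 in Rag1-/- and 6.79 in co-housed Tcra-/- mice.

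Paneth cell genes varied most among the co-housed Tcra-/- mice. None of 22 tested was called by edgeR's quasi-likelihood test, with Ang4 higher and Ang5 lower both at an unadjusted p under 0.05 and by DESeq2, and a median log2 fold change of 0.60. Summed alpha defensin genes gave 11549, 14696 and 12516 CPM in Rag1-/- mice, against 5842, 3515 and 15597 CPM in co-housed Tcra-/- mice. Mouse TCRaCox3157 lay above and mice TCRaCox3155 and TCRaCox3156 below all Rag1-/- mice. Lyz1, the Paneth cell lysozyme named after its values were seen, followed the same order, with 8145, 8101 and 7286 CPM in Rag1-/- mice, against 4288, 2595 and 10120 CPM in co-housed Tcra-/- mice (log2 fold change 0.47, 95% interval -0.65 to 1.58). Ang4, an antimicrobial ribonuclease of Paneth and goblet cells, had 895, 945 and 857 CPM in Rag1-/- mice, against 160, 103 and 388 CPM in co-housed Tcra-/- mice. The Ang4 groups did not overlap, and it was not called (log2 fold change 2.05, 95% interval 0.72 to 3.38, adjusted p = 0.091). Ang4 lies at -2.476 Mb relative to Dad1, within the region around Tcra on chromosome 14 described further on. The part of that region in the level of Ang4 was not tested. Within its group, mouse TCRaCox3157 had the highest defensin and Lyz1 levels and the lowest levels of Cd79a, Cd3e and Cd8a. Not all lymphocyte genes followed that order, as the same mouse had the highest levels of Cd163l1 (6.041 CPM) and 5830411N06Rik (1.089 CPM). These genes were set beside the defensins after their values were seen.

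Enterocyte lists held few called genes. For comparison, 1193 of all 15866 tested genes (7.52%) were higher and 1660 lower at an unadjusted p under 0.05, and DESeq2 called 1.54% of them higher and 3.74% lower. None of 33 lipid absorption genes was called by edgeR's quasi-likelihood test (median log2 fold change 0.04), with 2 higher and 4 lower at an unadjusted p under 0.05 and none by DESeq2. None of 23 cholesterol synthesis genes was called by edgeR's quasi-likelihood test, with 12 higher and none lower at an unadjusted p under 0.05, and 3 higher by DESeq2 (median log2 fold change 0.26, with 1 of the 23 negative). None of 27 fatty acid oxidation genes, 25 brush border genes, 17 goblet cell genes, 20 stem cell genes or 30 cell cycle genes was called by edgeR's quasi-likelihood test, nor was any by DESeq2 apart from Ang4 in the goblet cell list. At an unadjusted p under 0.05 these lists had 4, 2, 5, 2 and 0 genes higher and 0, 0, 1, 2 and 4 lower, in that order. Of 11 bile acid genes none was called by edgeR's quasi-likelihood test, with Abcc3 higher by DESeq2, and 3 higher and 1 lower at an unadjusted p under 0.05. Fabp6, the ileal bile acid binding protein, had 2688, 3238 and 3463 CPM in Rag1-/- mice, against 4015, 3734 and 4018 CPM in co-housed Tcra-/- mice (log2 fold change -0.33, 95% interval -0.55 to -0.10, adjusted p = 0.0889). Fabp6 was named after its values were seen.

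Single members of the metabolic, epithelial and position lists passed the test. Scd1, the desaturase that makes monounsaturated fatty acids, had 8.79, 7.84 and 12.3 CPM in Rag1-/- mice, against 33.5, 28.1 and 34.9 CPM in co-housed Tcra-/- mice, without overlap (log2 fold change -1.73, SE 0.24), and lost its call without mouse RAG1x3163 (adjusted p 0.00104 to 0.0106). It was the only call among 22 fatty acid synthesis genes. Stra6, a retinol transporter and the only call among 23 retinoid genes, had 0.245, 0.0948 and 0.213 CPM in Rag1-/- mice, against 2.11, 2.01 and 1.88 CPM in co-housed Tcra-/- mice (log2 fold change -3.42, SE 0.38). Ces1f, a carboxylesterase and the only call among 38 xenobiotic genes, had 80.4, 93.1 and 88.2 CPM in Rag1-/- mice, against 53.7, 57.3 and 67.3 CPM in co-housed Tcra-/- mice (log2 fold change 0.55, SE 0.10). Its call was lost without mouse RAG1x3164, TCRaCox3155 or TCRaCox3156 (adjusted p 0.000328 to 0.0151). Tac1, the precursor of substance P, had 58.8, 68.9 and 62.9 CPM in Rag1-/- mice, against 47.9, 31.5 and 40.5 CPM in co-housed Tcra-/- mice (log2 fold change 0.67, SE 0.13), and lost its call without mouse RAG1x3164, RAG1x3168, TCRaCox3156 or TCRaCox3157 (adjusted p 0.000775 to 0.0321). Slc40a1, the iron exporter ferroportin and a gene of the proximal small intestine list, rose by a log2 fold change of 0.55 (SE 0.12). Its call was lost without mouse RAG1x3163, RAG1x3164, RAG1x3168, TCRaCox3155 or TCRaCox3156, each left out singly (adjusted p 0.00151 to 0.0478).

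Stress and tissue sampling markers are given for the whole comparison. Of 20 immediate early and heat shock genes, 3 fell, Egr3, Dusp1 and Hspa1b, with a median log2 fold change of -0.45. Hspa1b, an inducible heat shock protein, had 22.2, 12.4 and 17.5 CPM in Rag1-/- mice, against 61.3, 71.3 and 48.6 CPM in co-housed Tcra-/- mice (log2 fold change -1.80, SE 0.31), and its call was lost without any 1 of the 6 mice (adjusted p 0.0128 to 0.042). Dusp1, a phosphatase induced by stress, fell by 0.94 (SE 0.19), with the call lost when any single mouse other than TCRaCox3155 was left out (adjusted p 0.00014 to 0.0422). Egr3, a transcription factor of activated cells, fell by 2.98 (SE 0.62), with the call lost without mouse RAG1x3163, RAG1x3164, TCRaCox3155 or TCRaCox3156 (adjusted p 0.00203 to 0.0464). The part of handling in these levels was not tested. None of 12 smooth muscle, 12 fibroblast, 14 enteric neuron and glia, 9 adipocyte or 5 red blood cell genes was called by edgeR's quasi-likelihood test or by DESeq2. At an unadjusted p under 0.05 these lists had no gene higher, and 0, 3, 1, 2 and 2 lower in that order. Of 8 ileum position genes none was called by edgeR's quasi-likelihood test, with 1 higher and 1 lower at an unadjusted p under 0.05 and 1 higher by DESeq2. Of 9 proximal small intestine position genes 1 rose, Slc40a1, described above.

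Some of the largest rises in Rag1-/- mice lay within 10 Mb of the place of Tcra, the gene targeted in the other group. Dad1, which adjoins the Tcra locus on chromosome 14, stood for its place. Within 10 Mb of Dad1, 12 of 196 tested genes rose (6.12%) and 7 fell (3.57%), while on the rest of the chromosome none of 334 rose and 10 fell (2.99%). The 12 make up 22.2% of all 54 rises and lie from -7.463 to 0.64 Mb relative to Dad1. Pnp2, a purine nucleoside phosphorylase at chr14:51575816-51584424 (mm9), had 66.1, 68.0 and 71.8 CPM in Rag1-/- mice, against 12.68, 10.31 and 11.02 CPM in co-housed Tcra-/- mice, 8.43, 6.45 and 7.46 CPM in separately housed Tcra-/- mice and 85.8, 103 and 90.3 CPM in C57BL/6 mice. Its neighbour Pnp at chr14:51563978-51573087 went the other way, with 188, 194 and 195 CPM in Rag1-/- mice, against 306, 262 and 278 CPM in co-housed Tcra-/- mice. The log2 fold change was 2.60 for Pnp2 (SE 0.11, adjusted p = 7.39e-10) and -0.55 for Pnp (SE 0.07, adjusted p = 0.00012). The transcript sequences compared had 2942 bases for Pnp and 1372 for Pnp2. They match at 1308 of 1372 aligned bases (95.3%), so reads from that part of Pnp may be split between the 2 genes.

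Other genes of that region also differed, by large or small folds. 1700011H14Rik had 23.03, 19.34 and 22.3 CPM in Rag1-/- mice, against 0.200, 0 and 0 CPM in co-housed Tcra-/- mice, 0.527, 1.398 and 1.203 CPM in separately housed Tcra-/- mice and 30.4, 35.2 and 33.7 CPM in C57BL/6 mice (log2 fold change 8.44 against co-housed Tcra-/-, SE 0.47). Both Tcra-/- groups thus lay far below the other mice. Ppp1r3e, a glycogen targeting subunit of protein phosphatase, rose, with 2.62, 3.06 and 2.31 CPM in Rag1-/- mice and 0.428, 0.229 and 0.347 CPM in co-housed Tcra-/- mice (adjusted p = 3.86e-06). Ccnb1ip1, a ubiquitin ligase of meiotic crossing over, had 0, 0 and 0.0427 CPM in Rag1-/- mice, against 4.43, 2.90 and 4.43 CPM in co-housed Tcra-/- mice, 1.89, 1.12 and 0.963 CPM in separately housed Tcra-/- mice and 0.045, 0.0453 and 0 CPM in C57BL/6 mice. It was present in both Tcra-/- groups and near 0 in the others (log2 fold change -7.74 against co-housed Tcra-/-, SE 0.59). Ppp1r3e, Ccnb1ip1 and Pnp were named after their values were seen. The rises 6720456H20Rik, at a log2 fold change of 1.16 (SE 0.14), Ang, at 0.86 (SE 0.09), and Abhd4, at 0.71 (SE 0.09), also lie there. Ang, a ribonuclease, shares exonic bases with another gene, so its reads may belong to either, and Abhd4 is a lipid hydrolase. In 6720456H20Rik and Ang both Tcra-/- groups lay below the Rag1-/- mice. Abhd4 differed from these, with 74.4, 72.1 and 81.1 CPM in separately housed Tcra-/- mice, above 52.9, 60.1 and 60.2 CPM in Rag1-/- mice. Co-housed Tcra-/- mice had 35.4, 31.9 and 38.8 CPM of Abhd4. Other genes of the region differed from C57BL/6 mainly in Rag1-/- mice. Log2 fold changes against C57BL/6, in Rag1-/- and then co-housed Tcra-/- mice, were 0.86 and 0.19 for Gch1 and 0.66 and 0.02 for Mmp14. Slc7a7, which also rose, had 0.40 and -0.02. Of genes that fell, Klhl33 had -1.57 and 0.18, and Blk had -4.24 and 0.03. All these values share the 3 C57BL/6 mice, and Gch1, Mmp14, Slc7a7 and Klhl33 were named after their values were seen.

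Around Rag1 on chromosome 2, Rag1 and Ccdc73 rose and Trim44, Cd59a and Rcn1 fell among 81 tested genes within 10 Mb, which is 2.47% rising and 3.70% falling. On the rest of that chromosome 8 of 1144 rose and 28 fell. Cd59a, which shields cells from complement, had 10.6, 7.37 and 7.81 CPM in Rag1-/- mice, against 19.9, 18.8 and 25.0 CPM in co-housed Tcra-/- mice, 25.5, 25.2 and 24.3 CPM in separately housed Tcra-/- mice and 21.9, 21.8 and 21.2 CPM in C57BL/6 mice. Rag1-/- mice lay below the other 3 groups (log2 fold change -1.31 against co-housed Tcra-/-, SE 0.13, adjusted p = 6.04e-06). The other 3 were named after their values were seen and lost their calls without some mice. Ccdc73, which shares exonic bases with another gene, had 2.11, 1.398 and 2.26 CPM in Rag1-/- mice, against 0.0571, 0 and 0.248 CPM in co-housed Tcra-/- mice (call lost without mouse RAG1x3163, RAG1x3168 or TCRaCox3155, adjusted p 0.000183 to 0.0188). Trim44 fell by 0.48 (call lost when any single mouse other than RAG1x3168 was left out, adjusted p 0.00283 to 0.0479). Rcn1 fell by 0.58 (call lost without mouse RAG1x3164, RAG1x3168, TCRaCox3156 or TCRaCox3157, adjusted p 0.00709 to 0.0327).

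**Figure D5:**
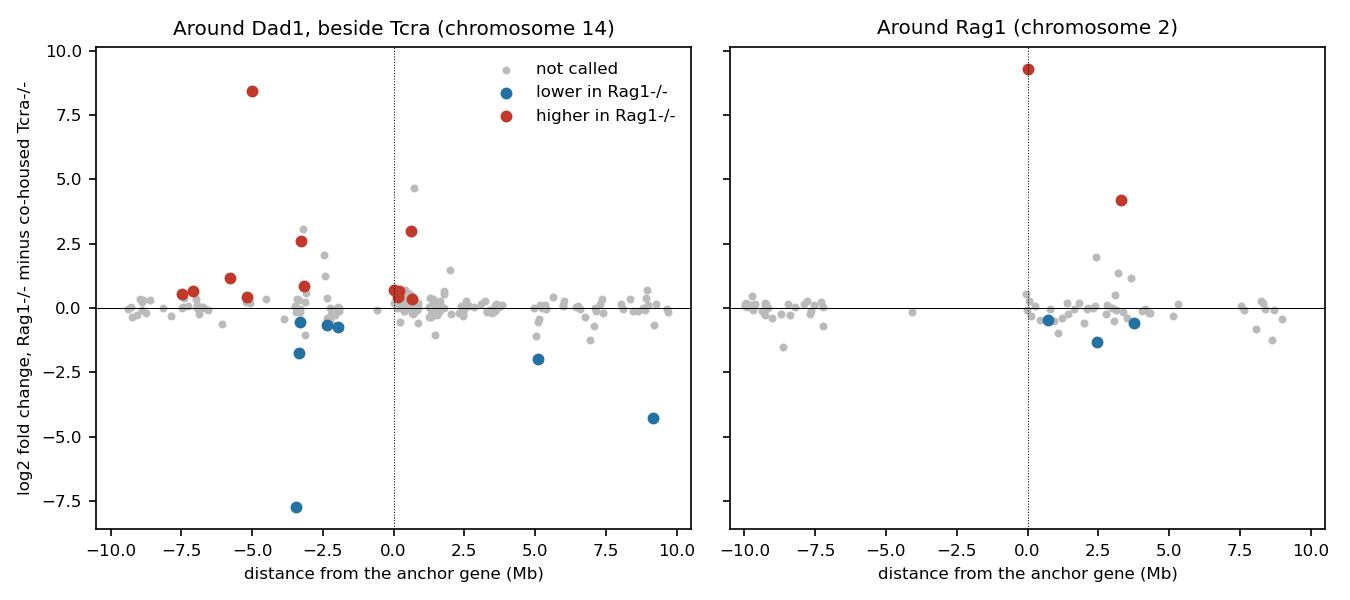
Log2 fold change of Rag1-/- minus co-housed Tcra-/- mice for tested genes within 10 Mb of Dad1, which adjoins Tcra (left), and of Rag1 (right), against distance from that gene in Mb; red points rose, blue points fell and grey points were not called. The rises near Dad1 run from -7.463 to 0.64 Mb, and the point of Rag1 is a fitted value against a group with no reads.

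Of the 15 largest rises among genes with an average log2 CPM above 1 over all 12 libraries, the other 10 lay outside both regions. Abca12, a lipid transporter, had 0.343, 0.972 and 0.640 CPM in Rag1-/- mice, against 0.114, 0 and 0.0495 CPM in co-housed Tcra-/- mice and 6.68, 5.82 and 8.25 CPM in C57BL/6 mice (log2 fold change 3.62 against co-housed Tcra-/-, SE 0.59). It had few reads in both compared groups, 85 in Rag1-/- and 6 in co-housed Tcra-/- mice, and its average is raised by the C57BL/6 mice. Ceacam10, of the carcinoembryonic antigen family, had 21.9, 24.1 and 23.1 CPM in Rag1-/- mice, against 11.6, 9.35 and 7.01 CPM in co-housed Tcra-/- mice (log2 fold change 1.31, SE 0.21), with the call lost without mouse RAG1x3164, RAG1x3168 or TCRaCox3156 (adjusted p 0.00153 to 0.0196). Zc3h12a, the ribonuclease Regnase-1 that cleaves cytokine transcripts, had 54.8, 80.6 and 56.6 CPM in Rag1-/- mice, against 44.6, 37.4 and 35.5 CPM in co-housed Tcra-/- mice (log2 fold change 0.71, SE 0.14), with the call lost without mouse RAG1x3164, RAG1x3168, TCRaCox3156 or TCRaCox3157 (adjusted p 0.00525 to 0.0548). These groups did not overlap. D730005E14Rik rose by a log2 fold change of 1.02 (SE 0.17) and, like Abca12 and Pigr, kept its call without any 1 mouse. Shroom1, Nkain1, Ankrd22, Efhb and Pkhd1 rose by log2 fold changes from 0.83 to 1.39, and each lost its call without at least 3 of the 6 mice taken out in turn. Their highest adjusted p was 0.0299 for Shroom1, 0.025 for Nkain1, 0.0589 for Ankrd22, 0.051 for Efhb and 0.0243 for Pkhd1. D730005E14Rik, Ankrd22 and Pkhd1 share exonic bases with another gene. All of the 15 largest falls kept their calls without any 1 mouse, among them Gpr174, a lymphocyte receptor for lysophospholipids, which fell by 4.80 (SE 0.48).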

How the data were processed

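RNA was taken with Trizol from terminal ileum and made into stranded mRNA libraries, per the labels' protocols. The deposited values are read counts per gene made by the authors. The submitters' processing notes name TopHat2 2.0.11, Bowtie2 2.2.2.0, featureCounts, Subread 1.4.5-p1 and DESeq2 1.12.3, and the build mm9. How the counting treated strand is not given in the sources used, and 45 of the called genes share exonic bases with another gene, from which their reads cannot be told apart.

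From the counts, edgeR 4.0.16 (R 4.3.3) was fitted with a quasi-likelihood model to all 12 libraries, 3 mice in each of 4 groups, with TMM normalization and 8 residual degrees of freedom. Of 23284 genes, 3810 had no read, 3608 more were left out by filterByExpr and 15866 were tested. The contrast was Rag1-/- minus co-housed Tcra-/-, and p-values were adjusted by Benjamini-Hochberg and called under 0.01, after the 1% rate in the series' design text. CPM values were computed from the deposited counts on TMM scaled library sizes, and log2 fold changes come from the fit. SE is the log2 fold change divided by the square root of F. Libraries of the 2 groups held 37061276 to 50581616 counts, and a group with no read of a gene was set at a floor of 3 counts over the group. P-values weigh the difference between the 2 groups against the spread between mice within groups, as estimated from all 12 libraries. Cages and litters are not given.

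The gene groups, their members and the tests were chosen with earlier results of these data known. Genes were named by rule. These were the 15 largest rises and falls among called genes whose mice did not overlap, with an average log2 CPM above 1 over all 12 libraries. Up to 4 called members of each list were also named. Others are said to be named after their values were seen, and this also holds for the genes named around Tcra and Rag1 and for the members of families. Promoters came from RefSeq (GRCm38.p6), matched by symbol for 12347 tested genes. Alternatives were DESeq2 1.42.0 and other normalizations, filters, thresholds and libraries. The code was checked on simulated data. Some named genes are not reported here.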

Additional observations from a re-analysis of the deposited data

How the results depend on the processing

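The 459 genes called became 281 with the 6 libraries fitted alone, 840 with DESeq2 and 909 at an adjusted p under 0.05, and 297 to 569 with 1 mouse left out. The 54 rises became 84 with RLE scaling, 30 with 6 libraries, 245 with DESeq2, 231 at 0.05 and 22 to 81 without 1 mouse; the 405 falls became 251, 595, 678 and 275 to 488 (6 libraries, DESeq2, 0.05, without 1 mouse). Falls made up 88.2% of calls, against 70.8% with DESeq2 and 74.6% at 0.05. Within 10 Mb of Dad1, rises were 24 with DESeq2 and 24 at 0.05, and falls 11 at 0.05. Within 10 Mb of Rag1, rises were 4 with DESeq2, 5 at 0.05 and 1 to 2 without 1 mouse, and falls were 1 with 6 libraries and 1 to 2 without 1 mouse. The T cell receptor list had 12 falls with 6 libraries. The interferon gamma list had 3 falls without a filter, 1 with 6 libraries, 22 with DESeq2, 20 at 0.05 and 1 to 14 without 1 mouse. The cause of these shifts was not tested. The B cell and Peyer's patch counts stayed within 1.5 times under every alternative run. Leaving out the genes near both loci, chosen after seeing the data, left 435 calls. Of 1878 pairs of a named gene and an alternative, 1690 gave the same call, 171 lost it, 17 gained one and 0 changed direction; 75 of 108 named calls held without any 1 mouse. No paired analysis was possible because the mouse numbers are not shared between the groups. The housing of Rag1-/- mice is not given, which bears on every comparison above.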

Other observations

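Genes outside the groups above also separated Rag1-/- from co-housed Tcra-/- mice, and all in this part were picked after their values were seen. Clcf1, a cytokine of the IL-6 family that stimulates B cells, had 0.441, 0.237 and 0.427 CPM in Rag1-/- mice, against 4.46, 3.13 and 3.99 CPM in co-housed Tcra-/- mice, 5.33, 4.64 and 5.05 CPM in separately housed Tcra-/- mice and 1.71, 1.79 and 1.68 CPM in C57BL/6 mice. Rag1-/- mice were the lowest and the Tcra-/- groups the highest (log2 fold change -3.37, SE 0.24, adjusted p = 1.72e-07 against co-housed Tcra-/-). Cacna1i, a voltage gated calcium channel subunit, had no read in Rag1-/- mice, against 2.199, 2.675 and 1.981 CPM in co-housed Tcra-/- mice, and was at least 99.6-fold lower in Rag1-/- mice. Prg2, the major basic protein of eosinophils, had no read in Rag1-/- mice, against 0.771, 1.60 and 1.19 CPM in co-housed Tcra-/- mice and 0.8997, 0.8612 and 1.096 CPM in C57BL/6 mice. It was at least 52.7-fold lower in Rag1-/- than in co-housed Tcra-/- mice.

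Of 20 tested complement genes 1 fell, Cd59a, while 12 did not overlap between the groups, as was so for 22.7% of all tested genes. DESeq2 called 2 of the 20 higher and 6 lower, against 1.54% and 3.74% of all tested genes. C1qb, a chain of the first complement component made by macrophages, had 35.0, 31.3 and 33.1 CPM in Rag1-/- mice, against 52.9, 71.6 and 46.1 CPM in co-housed Tcra-/- mice (log2 fold change -0.78, 95% interval -1.12 to -0.44, adjusted p = 0.0102). The groups did not overlap in C1qb, which did not pass the test.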
